A study of Mus musculus with 2 samples.

Results

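The proteasome genes of the mouse heart were taken as all protein-coding genes whose symbol begins with Psma to Psmg followed by a digit, in the annotation used for a long-read RNA sequencing series. There were 50 such genes, of 16269 reference genes with a count in at least 1 library, and all 50 that the annotation holds were counted. One of them, Psmc3ip, matches by name only: it encodes a recombination factor of meiosis and no proteasome subunit. Heart tissue came from male B6CASTF1/J mice, hybrids of the C57BL/6J and CAST backgrounds whose alleles were not separated in the counts, at an age of 14 days. The series holds 1 group of 2 libraries, called biological replicates 1 and 2 in the labels, with no treatment named. Each library was made from 2 µg of total RNA with spike-ins. Both carry 1 donor label, and each tissue label mentions 3 males without saying whether tissue was pooled. Both descriptions give the same tissue name, the same identifiers and the same cDNA names, without saying which belongs to which library. The p-values therefore measure only the difference between these libraries by counting error, and the spread may be partly technical.

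The proteasome is the protease of the cytosol and nucleus that degrades proteins tagged with ubiquitin. Its barrel, the 20S core, is built of outer alpha rings and inner beta rings, and proteolysis takes place at the catalytic beta subunits inside. The 19S regulator caps the barrel: its base unfolds substrates with a ring of ATPases, and its lid removes ubiquitin. In the heart the 26S complex, which is the core with its regulator, takes part in the turnover of contractile proteins. Immune cells, and other cells under interferon, replace the constitutive catalytic subunits by immunoproteasome subunits, whose products feed antigen presentation.

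A count is 1 long read assigned to a transcript model, and a read covers a transcript at most once whatever its length, so levels are given in CPM (counts per 1000000 counts on reference genes) without division by length. The totals on reference genes were 1059016 counts (replicate 1) and 1064679 counts (replicate 2), so that 1 count was worth 0.944 and 0.939 CPM. All 6 cardiomyocyte markers were counted, with a summed level of 28000 and 29590 CPM. The libraries differed in markers of other tissues and cell types: 4 atrial genes summed to 4867 and 1200 CPM, 5 red blood cell genes to 17250 and 12790 CPM, and 3 brown fat genes to 467 and 287 CPM.

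Proteasome genes took 7301 counts in replicate 1, or 0.689% of the total, and 7221 counts in replicate 2, or 0.678%. Their summed level was 6838 ± 79.1 CPM (SD, n = 2). The median proteasome gene had 125 CPM, against 14.1 CPM for the 13766 protein-coding genes counted, and 35 of the 50 were in the top 25% of protein-coding genes by level. None was among the most abundant transcripts of the tissue: the highest, Psmc3, ranked 264 among protein-coding genes. The 31 constitutive subunits of the 26S complex spanned a 6.61-fold range of mean levels, from Psmb7 to Psmc3, although they are stoichiometric parts of 1 particle. The 7 assembly chaperones were lower, and the median 26S subunit had 6.17 times the level of the median chaperone.

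**Figure D1:**
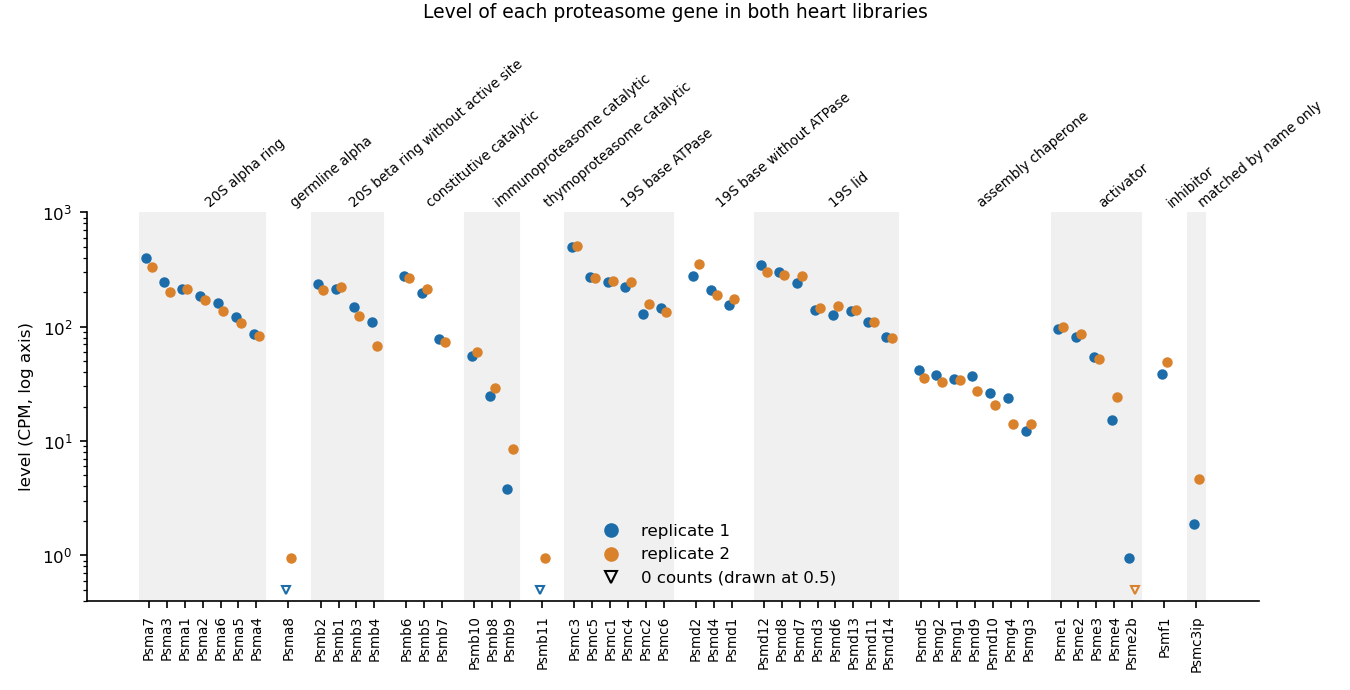
Level of each proteasome gene in CPM on a log axis, ordered by level within its role. Circles are the 2 libraries (blue replicate 1, orange replicate 2) and open triangles mark 0 counts. Constitutive subunits of the core and regulator lie between 67.6 and 507 CPM in each library, assembly chaperones and immunoproteasome subunits lie lower, and Psma8, Psmb11 and Psme2b have 1 count in 1 library.

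The 7 genes of the alpha ring, which gates entry to the core, summed to 1415 CPM in replicate 1 and 1248 CPM in replicate 2 (1331 ± 118 CPM). Psma7 (chr2:180036374-180042433) was the highest with 425 and 354 counts (367 ± 48.7 CPM). Psma4 was the lowest with 92 and 88 counts (84.8 ± 2.98 CPM). Between these extremes the ring genes formed a graded series rather than a common level. Psma3 had 262 and 215 counts (225 ± 32.2 CPM) and Psma1 225 and 226 (212 ± 0.13 CPM). Psma2 had 196 and 184 counts (179 ± 8.67 CPM) and Psma6 169 and 147 (149 ± 15.2 CPM). Psma5 had 129 and 115 counts (115 ± 9.76 CPM). All 7 ratios of replicate 2 over replicate 1 were below 0 (6 of 7 with a trend on transcript length removed), Psma1 by a log2 ratio of only -0.0013, and none passed the test described below.

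Of the beta subunits without an active site, which hold the inner rings together, Psmb2 had 252 and 223 counts (224 ± 20.2 CPM). Psmb1 had 227 and 236 counts (218 ± 5.17 CPM), and the order of these 2 genes reversed between the libraries. Psmb3 had 157 and 131 counts (136 ± 17.8 CPM). Psmb4 (chr3:94884093-94886961), which joins last during assembly of the core, was the lowest of the 4 and also the one that differed most between the libraries. It had 116 counts in replicate 1 and 72 in replicate 2 (88.6 ± 29.6 CPM).

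The 3 constitutive catalytic subunits summed to 553.3 and 553.2 CPM, a difference smaller than 1 count is worth. Psmb6, which carries the caspase-like activity, had 294 and 282 counts (271 ± 9.01 CPM). Psmb5, which carries the chymotrypsin-like activity, had 209 and 229 counts (206 ± 12.5 CPM). Psmb7, which carries the trypsin-like activity, had 83 and 78 counts (75.8 ± 3.62 CPM). Psmb7 thus had the lowest mean level of all constitutive 26S subunits, though Psmb4 was lower in replicate 2 (72 counts). Psmd14 (80.5 ± 0.97 CPM) and Psma4 (84.8 ± 2.98 CPM) were close above it. Counted only on models with a reference transcript identifier, Psma4 (84.78 CPM) was below Psmb7 (89.45 CPM), so this rank depends on the models counted. The counts of both other catalytic genes were above those of Psmb7 in each library.

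Each immunoproteasome subunit takes the place of 1 constitutive subunit, and all 3 were detected, at very different shares of their pairs. Psmb10, the counterpart of Psmb7, had 59 and 64 counts (57.9 ± 3.11 CPM). It made up 41.5% of its pair in replicate 1 (exact Clopper-Pearson 95% interval 33.4 to 50.1%) and 45.1% in replicate 2 (36.7 to 53.6%). Psmb8, the counterpart of Psmb5, had 26 and 31 counts (26.8 ± 3.23 CPM), or 11.1% (7.36 to 15.8%) and 11.9% (8.25 to 16.5%) of its pair. Psmb9, the counterpart of Psmb6, had 4 and 9 counts (6.12 ± 3.31 CPM), or 1.34% (0.367 to 3.40%) and 3.09% (1.42 to 5.79%) of its pair. The order of the shares was the same in both libraries, and the intervals of the 3 pairs did not overlap within a library. By two-sided Fisher's exact tests of 8 pairs with Benjamini-Hochberg adjustment, no pair's share differed between the libraries: the smallest adjusted p was 0.82, for Psmb9 (raw p = 0.17) and for Psme4 with Psme3 (raw p = 0.20). Psmb8 and Psmb9 lie near each other on chr17 (34197721-34201454 and 34181987-34187764) within the class II region of the major histocompatibility complex, and Psmb10 lies on chr8 (105935735-105938444).

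The summed level of the immunoproteasome subunits was 84.0 CPM in replicate 1 and 97.7 CPM in replicate 2 (90.9 ± 9.65 CPM). Beside them, the 11 macrophage and leukocyte markers, all of them counted, summed to 356 and 537 CPM. In whole tissue, fewer cells of a type and less RNA per cell cannot be told apart, and the part of these cells in the immunoproteasome counts was not tested. The genes of the class I antigen pathway were present at a range of levels: the heavy chain gene H2-D1 had 279 and 338 counts, H2-K1 26 and 31 counts, and the light chain gene B2m 43 and 59 counts. The peptide transporter genes Tap1 and Tap2 had 16 and 14 and 31 and 33 counts, and the loading factor Tapbp had 147 and 163 counts. None of the 6 passed the test between the libraries (adjusted p of the exact binomial test 0.27 to 1).

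**Figure D2:**
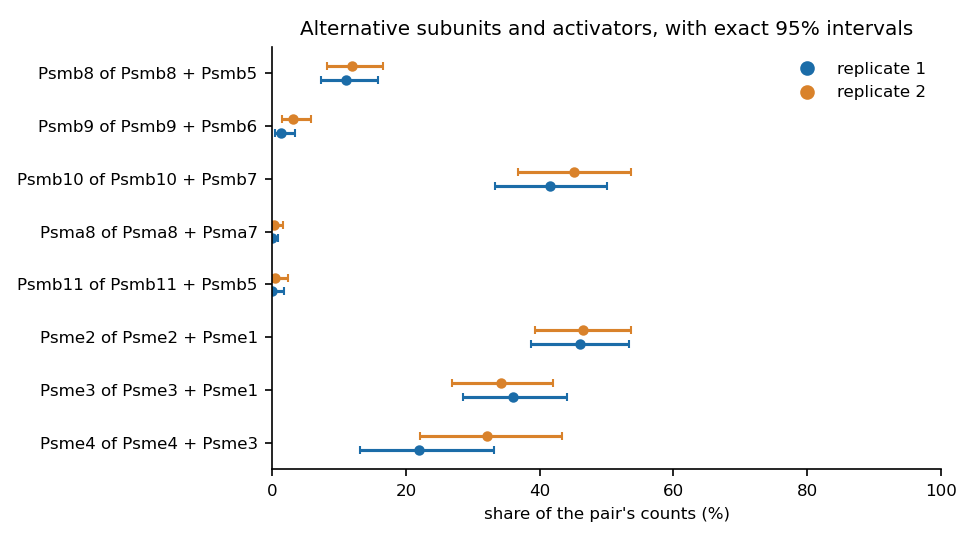
Share of the first gene in the summed counts of each of 8 pairs, in percent, with exact Clopper-Pearson 95% intervals for replicate 1 (blue) and replicate 2 (orange). The intervals of both libraries overlap in every pair, and Psmb10 takes 41.5% and 45.1% of its pair while Psmb9 takes 1.34% and 3.09%.

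Subunits of specialised proteasomes were at or near 0. Psmb11, the thymoproteasome subunit of cortical thymic epithelium, had 0 counts in replicate 1 and 1 in replicate 2. A count of 0 allows up to 3 counts, or 2.83 CPM. Beside it, the 9 markers of thymocytes and thymic cortex had 3 counts in replicate 1 and 110 in replicate 2 with the thymic epithelial factor Foxn1 at 0, and their part in this count was not tested. Psma8, the alpha subunit of the testis, also had 0 and 1 counts, against 425 and 354 for its somatic counterpart Psma7. Of 5 markers of meiotic germ cells, 4 were at 0 and the other had 1 count, in replicate 2. Psmc3ip had 2 and 5 counts (3.29 ± 1.99 CPM).

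The 6 ATPases of the base, which form the unfolding ring, summed to 1512 and 1563 CPM (1537 ± 36.2 CPM), close to the lid at 1485 ± 5.05 CPM. With reference transcript identifiers only, the order was reversed, at 1596 CPM for the ATPases and 1735 CPM for the lid. In that setting Psmc2, whose annotated transcript had 0 and 1 counts, went from 144 to 0.584 CPM. The level of each other ATPase gene rose, so the reversal does not describe the ATPases as a set. Psmc3 (chr2:91054009-91066369) had 524 and 540 counts (501 ± 8.77 CPM). Psmc5 had 290 and 282 counts (269 ± 6.34 CPM) and Psmc1 261 and 269 (250 ± 4.39 CPM). These levels were close between the libraries, and Psmc3 was the highest of all proteasome genes. Psmc4 had 235 and 262 counts (234 ± 17.1 CPM). Psmc2 had 138 and 168 counts (144 ± 19.4 CPM) and Psmc6 153 and 143 (139 ± 7.19 CPM), and these lowest ATPase genes could not be ranked beyond their spread.

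Among base subunits without ATPase activity, Psmd2 (chr16:20651652-20663414), a scaffold that docks ubiquitin receptors, had 293 counts in replicate 1 and 373 in replicate 2 (314 ± 52.1 CPM). Psmd4, a ubiquitin receptor, had 220 and 200 counts (198 ± 14.1 CPM). Psmd1, the large scaffold of the base, had 163 and 187 counts (165 ± 15.4 CPM). For Psmd2 the fold of replicate 2 over replicate 1 was 1.27 (exact 95% interval 1.08 to 1.48), which did not pass the exact test after adjustment (p = 0.0025, adjusted p = 0.068).

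The 8 lid genes summed to 1482 and 1489 CPM (1485 ± 5.05 CPM). Psmd12 was the highest with 368 and 320 counts (324 ± 33.2 CPM). Psmd14, the deubiquitinase that removes ubiquitin chains from substrates, was the lowest with 86 and 85 counts (80.5 ± 0.97 CPM). Its partner Psmd7 had 253 and 296 counts (258 ± 27.7 CPM), well above Psmd14 in each library. Psmd8 had 317 and 303 counts (292 ± 10.4 CPM) and Psmd3 149 and 155 (143 ± 3.46 CPM). Psmd6 had 135 and 160 counts (139 ± 16.1 CPM) and Psmd13 145 and 148 (138 ± 1.48 CPM). Psmd11 had 116 and 118 counts (110 ± 0.92 CPM). The other lid genes thus lay between Psmd14 and Psmd12, and Psmd3, Psmd6 and Psmd13 could not be ranked beyond their spread.

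The assembly chaperones, which are not part of the finished particle, summed to 213 and 179 CPM (196 ± 24.7 CPM). Of those that help to build the base, Psmd5 had 44 and 38 counts, Psmd9 39 and 29 and Psmd10 28 and 22. Of those that help to build the core, Psmg2 had 40 and 35 counts, Psmg1 37 and 36, Psmg4 25 and 15 and Psmg3 13 and 15. Psmd5 was the highest at 38.6 ± 4.14 CPM and Psmg3 the lowest at 13.2 ± 1.28 CPM, so all 7 lay below the lowest 26S subunit. Ratios of replicate 2 over replicate 1 were below 0 for 6 of the 7 (5 with the length trend removed), and none passed the test.

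Activators replace or supplement the 19S cap. Psme1 (chr14:55578123-55581529) had 101 and 106 counts (97.5 ± 2.96 CPM), and Psme2 (chr14:55587441-55591113), its partner in 1 ring, had 86 and 92 counts (83.8 ± 3.68 CPM). Psme2 thus made up 46.0% and 46.5% of the pair, with exact intervals of 38.7 to 53.4% and 39.4 to 53.7% that include equal counts. Psme2b, a single-exon gene of chr11 (48945354-48946190), had 1 count in replicate 1 and 0 in replicate 2. Its annotated transcript is 99.4% identical to that of Psme2 over 794 bases, so that count is uncertain. Psme3, the nuclear activator, had 57 and 55 counts (52.7 ± 1.53 CPM). Psme4, the largest activator, had 16 and 26 counts (19.8 ± 6.59 CPM). The inhibitor Psmf1 had 41 and 52 counts (43.8 ± 7.16 CPM).

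Genes with 10 or more counts over both libraries were compared by an exact conditional binomial test (two-sided, Benjamini-Hochberg adjusted over all 10162 such genes, threshold 0.05). Of the 50 proteasome genes 46 were tested, and 4 had too few counts (Psma8, Psmb11, Psme2b and Psmc3ip). Psmb4 was the 1 gene that passed in the direction of replicate 1, against a background of 1.65% of all genes tested, and none passed in the direction of replicate 2, against 1.6%. For Psmb4 the log2 ratio of replicate 2 over replicate 1 (on CPM + 1) was -0.69 (fold 0.617, exact 95% interval 0.454 to 0.836, p = 0.0013, adjusted p = 0.041). Over 12 settings its adjusted p ranged from 0.014 to 0.99 and passed in 8. These include both other pseudocounts, which enter only the ratio and so repeat the main test. Psmb4 did not pass with edgeR's exact test, which adds a common spread between libraries (adjusted p = 0.99). That test called none of the proteasome genes and 22 genes in all. Its spread was estimated from these 2 libraries as 1 group and so holds their difference, which makes it no independent check. Unadjusted p-values of the exact binomial test under 0.05 were found for 4 proteasome genes and 1247 genes in all. By that exact test the 4 were Psmb4, Psmd2, Psma7 (p = 0.0089, adjusted p = 0.17) and Psma3 (p = 0.028, adjusted p = 0.30). Of the 35 proteasome genes with at least 100 counts over both libraries, 34 had a fold within 1.5 in either direction. The same share over all genes of that count was not computed, so this is not shown to be particular to the set.

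**Figure D3:**
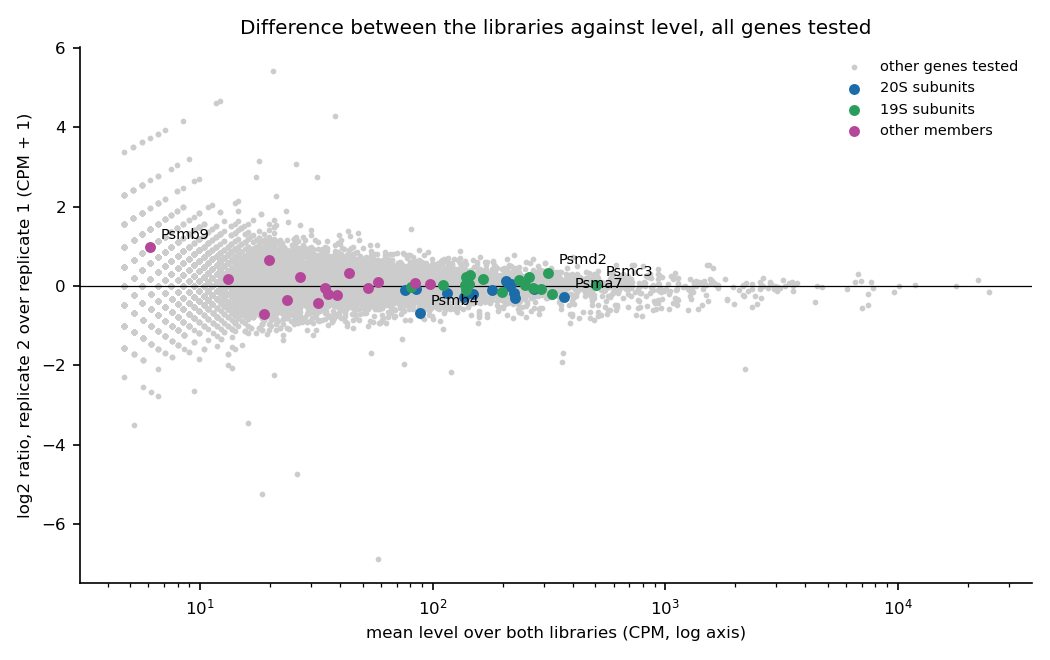
Log2 ratio of replicate 2 over replicate 1, on CPM + 1, against mean level in CPM on a log axis, for all 10162 genes tested (grey) and the 46 proteasome genes tested (blue core, green regulator, magenta others). Psmb4 lies at -0.69 and Psmd2 at 0.34. The spread of other genes of the same level was drawn but not computed.

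Core and regulator genes were set side by side by their ratios of replicate 2 over replicate 1. Of 14 constitutive 20S genes, 12 had a ratio below 0 (median -0.14), and of 17 19S genes 6 did (median 0.04), while the median over all genes tested was 0.08 and 43.9% of them were below 0. The 20S genes held 2836 of the 26S counts in replicate 1, or 42.4% (exact 95% interval 41.2 to 43.6%), and 2580 in replicate 2, or 39.2% (38.0 to 40.4%). Transcript length moves with this split: the median dominant transcript was 1162.5 bases for the 20S genes and 1636 bases for the 19S genes, against 2639.5 bases over all genes tested. With a smooth trend of the ratio on length removed, the medians were -0.06 and -0.03, with 11 of 14 and 10 of 17 genes below 0. These counts are a description of 2 libraries and no test was made of the groups. Scaling by edgeR's TMM factors, which brings the median over all genes to -0.003, gave medians of -0.22 and -0.05, with 13 of 14 and 11 of 17 below 0, so that in both of these settings the 19S median was below 0 too.

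Genes that work with the proteasome were taken from a list of 36 names, of which 33 had counts and were tested. Shfm1, AI314180 and Paaf1 had no count, and the first 2 of these are older names of Sem1 and Ecpas. Of the 33, 1 passed in each direction, against 1.65% (higher in replicate 1) and 1.6% (higher in replicate 2) of all genes tested. Of their ratios 11 were below 0, against 43.9% of all genes tested. The median was 0.08, the same as over all genes. No gene of the list passed under edgeR's exact test. Among the highest genes of the list, the polyubiquitin gene Ubb had 2773 and 2640 counts (2549 ± 98.2 CPM, adjusted p of the exact binomial test 0.39, and 0.0021 under TMM scaling, where it was higher in replicate 1). The unfoldase Vcp had 572 and 651 counts (576 ± 50.4 CPM, adjusted p of the exact binomial test 0.32). Subunits of the 26S complex that the symbol rule does not reach lay within the range of the members, with 246 and 221 counts for the ubiquitin receptor Adrm1 and 235 and 186 for Sem1. The core maturation factor Pomp had 137 and 129 counts, more than any of the chaperones above.

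Long reads also show which transcript of a gene was read. Of the counts of proteasome genes, 90.02% in replicate 1 (exact 95% interval 89.3 to 90.7%) and 90.18% in replicate 2 (89.5 to 90.9%) lay on annotated transcripts, against 80.7% and 80.4% over all reference genes. Models of the authors' Genomic class held 0.301% and 0.235% of the proteasome counts against 2.77% and 2.63% over all genes. Incomplete splice matches, which hold a run of an annotated transcript's introns but lack exons at an end, held 6.94% and 6.55%, against 8.59% and 8.42%. The dominant transcripts of the proteasome genes tested were shorter, with a median of 1410.5 bases against 2639.5 bases over all genes tested. The part of transcript length in these shares was not tested. The dominant annotated transcript was compared with a gene's other annotated transcripts by Fisher's exact test in the 19 proteasome genes that had 20 or more such counts per library and more than 1 transcript. None of the 19 passed, against a background of 0.038% of 2633 genes.

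**Figure D4:**
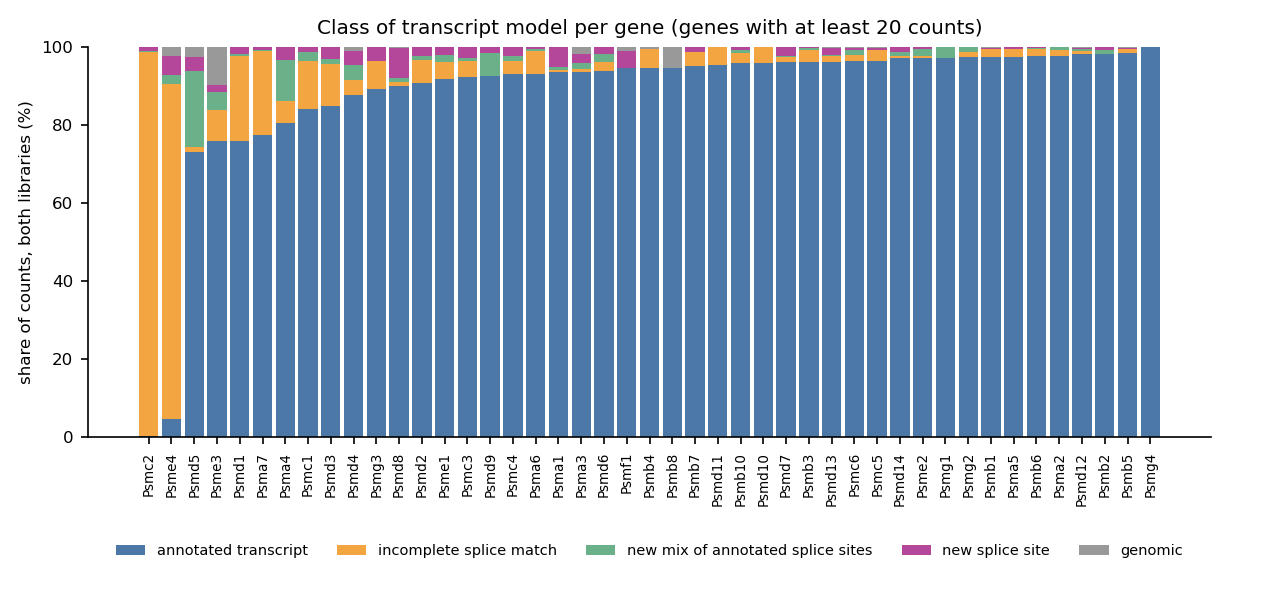
Share of counts over both libraries on each class of transcript model, in percent, for the proteasome genes with at least 20 counts. Psmc2 and Psme4 at the left lie almost wholly on incomplete splice matches (0.327% and 4.76% annotated), and most others lie over 90% on annotated transcripts.

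Among the 19 genes with enough annotated counts to be tested, Psmd4 was the least dominated by 1 annotated transcript. With fewer counts than that, Psmg4-201 had 12 of 25 and 9 of 15 annotated counts. Psmd4-202 took 110 and 94 annotated counts, or 56.4% and 54.3%, and Psmd4-201 took 85 and 78, or 43.6% and 45.1%. The transcripts differ by alternative donors 9 bases apart in the coding sequence, so that 3 codons are kept in Psmd4-201 only, and the introns run from 95033765 to 95033908 and to 95033917 of chr3. The exon end is shown 5′ to 3′ from the minus strand (mm10, chr3:95033909-95033938, from the GENCODE M21 transcript), with the bases kept in Psmd4-201 only in capitals.
Psmd4-201: ttgctacacctgggactgaagGTGAAAGAG

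In Psma3 the choice lay between acceptors 5 bases apart, a shift that changes the reading frame. The coding transcript Psma3-202 took 217 and 181 counts, or 89.7% and 88.3%. Psma3-201, which GENCODE classes as a target of nonsense-mediated decay, took 19 and 18, or 7.85% and 8.78%. The exon start is shown from the plus strand (mm10, chr12:70983319-70983348), with the bases kept in Psma3-202 only in capitals.
Psma3-202: TACAGctattgggatcagatgtaaagatgg
In each library both transcripts were read, and their shares stayed within 1.5 percentage points of each other between the libraries.

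Among the 19 genes tested, the others of the 6 with the lowest share on the dominant transcript were Psmd11, Psmd10, Psmb6 and Psmb10. Psmd11-201 took 90.7% and 81.0% of annotated counts and Psmd11-214, which encodes the same number of coding bases (1266) but lacks 1 intron of the first (chr11:80471595-80471709), took 10 and 21 counts, or 9.35% and 18.1% (p = 0.055, adjusted p = 1 by Fisher's exact test). Psmb6-201 took 273 and 245 counts, and the retained-intron transcript Psmb6-202 took 17 and 27, or 5.86% and 9.93%. Psmd10-201 took 23 of 26 and 20 of 22 annotated counts, and Psmb10-201 took 51 of 55 and 60 of 63. None of these 4 shifts passed.

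Unannotated models of several exons were paired across the libraries where all introns were the same, and 94 of 399 distinct intron chains, in 33 of the genes, were found in both. The same share over all genes was not computed, so this is not shown to be particular to the set. Of the 94, 68 were made of annotated introns and 26 had at least 1 new intron. At least 3 counts in each library were found for 15 models and at least 10 for 5. Ends of these models cannot be read as ends of molecules, because 938 of 986 model ends (95.1%) lay exactly on an annotated exon boundary.

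Psmc2 (chr5:21785283-21803787, plus strand) was read almost only from its second exon on. A 12-exon model that lacks the first exon of Psmc2-201 took 136 counts in replicate 1 and 162 in replicate 2, or 98.6% and 96.4% of the gene. The full annotated transcript had 0 and 1 counts. The first exon (235 bases) holds no coding sequence and the start codon lies in exon 2, so the model keeps all 1425 coding bases. Over all genes with at least 20 counts on annotated or incompletely matched models in each library, 77 of 4934 (1.56%) had over 90% on incomplete matches, and Psmc2 was the 1 gene of 42 proteasome genes among them. RefSeq lists a second start of Psmc2 within exon 2, at 21786747, 1472 bases after its first start and 58 bases after the start codon at 21786689. The RefSeq window around that second start (GRCm38.p6, chr5:21786497-21786796, plus strand, 250 bases before and 50 from the start on) covers the beginning of exon 2 at 21786650, and is shown with the start codon in capitals.
Psmc2: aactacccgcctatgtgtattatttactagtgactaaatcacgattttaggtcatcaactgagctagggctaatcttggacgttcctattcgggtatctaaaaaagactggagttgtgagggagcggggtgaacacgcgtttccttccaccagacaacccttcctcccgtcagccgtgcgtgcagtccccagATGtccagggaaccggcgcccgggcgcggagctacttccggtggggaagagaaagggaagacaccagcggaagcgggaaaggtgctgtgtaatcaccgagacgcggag
The model starts on the boundary of exon 2 at 21786650, so it does not show whether the reads held this start codon. It is the start codon of the frame annotated in Psmc2-201, and a read from the second RefSeq start would lack it. Whether translation could start further along the sequence was not tested. Whether the reads began at this RefSeq start, or at another point of exon 2, was not tested.

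Psma7 had a 4-exon model that lacks exons 1 to 3 of Psma7-201, with 109 counts in replicate 1 and 51 in replicate 2, or 25.6% and 14.4% of the gene. It holds 396 of 744 coding bases and no start codon of the annotated frame. Counted over all incomplete matches of the gene, 111 stood against 310 annotated counts in replicate 1 and 56 against 294 in replicate 2, or 26.4% and 16.0%. This share was higher in replicate 1 by Fisher's exact test, a comparison chosen after seeing the data (p = 0.00059, adjusted p = 0.039 over 4279 genes). Psma7 was the 1 of 37 proteasome genes tested that passed, against a background of 0.935% of genes higher in replicate 1 and 0.678% higher in replicate 2. The annotated counts of Psma7 were close, 310 and 294, so most of the difference in its total (425 and 354) lay on the short model. Exon 4, where the model begins, is shown from the minus strand (mm10, chr2:180038065-180038187).
Psma7 exon 4: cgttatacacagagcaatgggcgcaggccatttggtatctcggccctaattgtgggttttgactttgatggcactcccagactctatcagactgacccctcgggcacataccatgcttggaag

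Psmd1 had a model with the opposite shape: it keeps the first 21 exons and part of exon 22, and lacks the rest of exon 22 and the last 3 exons of Psmd1-201. It took 20 and 32 counts, or 12.3% and 17.1% of the gene, and holds 88.0% of the coding bases without the stop codon.

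**Figure D5:**
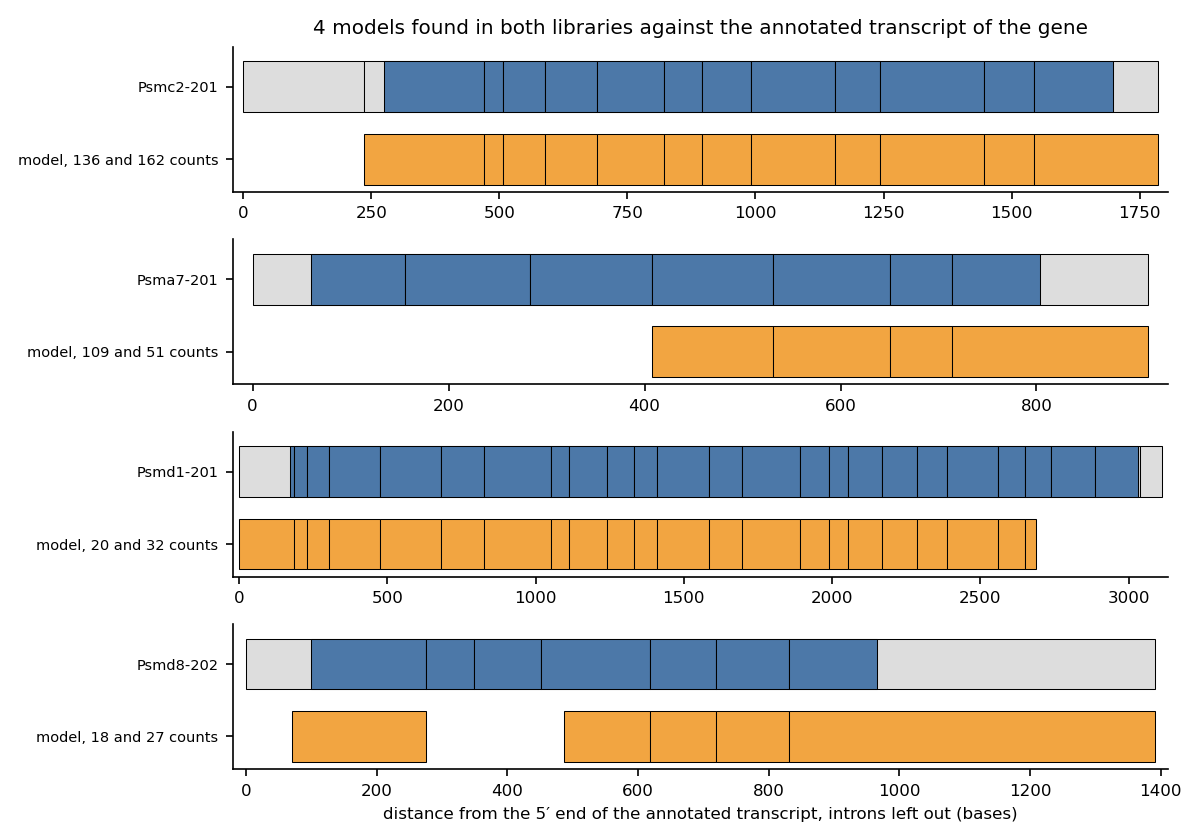
Annotated transcript (upper row, coding part blue, rest grey) and the most abundant unannotated model found in both libraries (orange) for Psmc2, Psma7, Psmd1 and Psmd8, against the distance in bases from the 5′ end of the annotated transcript with introns left out. Boxes are exons. Psmc2 lacks the first exon, Psma7 the first 3, Psmd1 part of exon 22 and the last 3, and Psmd8 has a gap of 210 bases inside the coding part.

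The most abundant model with a new intron was in the lid gene Psmd8 (chr7:29174188-29180701, minus strand). A 5-exon model took 18 counts in replicate 1 and 27 in replicate 2, or 5.68% and 8.91% of the gene. Its new intron (29177198 to 29180276) joins the annotated donor of exon 1 to an acceptor inside exon 4. It leaves out exon 2 (73 bases), exon 3 (103 bases) and the first 34 bases of exon 4, in all 210 coding bases or 70 codons, so that the reading frame is kept and start and stop codons stay in the model. The parts left out are shown in order from the minus strand (mm10, chr7:29179143-29179215, chr7:29178919-29179021 and chr7:29177198-29177231), with the AG before the new acceptor site in capitals.
Psmd8 exon 2: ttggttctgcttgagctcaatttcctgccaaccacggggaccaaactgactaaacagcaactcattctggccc
Psmd8 exon 3: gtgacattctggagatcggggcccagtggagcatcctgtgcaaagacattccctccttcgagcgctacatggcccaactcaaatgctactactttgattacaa
Psmd8 exon 4, first 34 bases: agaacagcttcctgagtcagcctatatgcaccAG

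Of the other abundant shared models, most had fewer counts than those above. In Psmc1 a model with 29 counts in each library (11.1% and 10.8% of the gene) lacks exon 1, which holds only 3 coding bases, the start codon. In Psma4 a model of 10 exons with 7 and 12 counts combines annotated introns in a new way and keeps all 783 coding bases. Psmd3 had a model without exon 1 with 5 and 13 counts, and Psma6 had one without exons 1 to 3 with 9 and 6 counts. Psmd5, which lies just outside these 8 genes by counts, is named as a gene with a clear exon skip: 8 counts in replicate 1 and 6 in replicate 2, or 18.2% and 15.8% of the gene, lacked exon 2, whose 145 bases are not a multiple of 3. Exon 2 is shown from the minus strand (mm10, chr2:34866893-34867037).
Psmd5 exon 2: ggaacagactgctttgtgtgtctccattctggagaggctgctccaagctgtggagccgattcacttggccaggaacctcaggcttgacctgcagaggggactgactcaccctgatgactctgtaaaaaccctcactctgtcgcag
Psme4, with 47 exons and 6491 bases the longest of the dominant transcripts, had 2 annotated counts of 42, and 36 of its counts lay on incomplete matches.

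Some genes have near copies elsewhere in the genome, which could take or give reads. Transcripts of genes outside the set that were at least 90% identical over at least 50% of the dominant transcript were found for 11 proteasome genes, 19 distinct copies in all. Only 2 of these copies had a count, Gm14227 (a copy of Psmb3, 1 count in replicate 1) and Gm8394 (a copy of Psma5, 1 count in replicate 2). These copies thus held 1 count in each library.

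Promoters of 42 of the 50 genes are in the RefSeq table (GRCm38.p6, 250 bases before and 50 after the start), and those of Psma8, Psmb1, Psmb2, Psmb7, Psmc3, Psmd3, Psmd7 and Psmg2 are not. Nfe2l1, a factor known to induce proteasome genes through antioxidant response elements, was read with 204 and 261 counts (219 ± 37.1 CPM). The core of that element, TGACNNNGC on either strand, was found in promoters of 6 genes, or 14.3%, against 14.0% of 27025 genes in the table. They are Psmb5 (TGACgtcGC, 47 bases before the start), Psmb6 (TGACggaGC, 9 bases before the start), Psmc6, Psmd12, Psmd9 and Psme4. The interferon-stimulated response element, searched as a repeat of GAAA with any 2 bases between on either strand, was found in 5 genes, or 11.9%, against 3.99% of genes. They are Psmb3, Psmd4, Psmd9, Psme1 (GAAAgcGAAA, 9 bases after the start) and Psmg4 (GAAAgtGAAA, 15 bases after the start). The immunoproteasome genes Psmb8, Psmb9 and Psmb10 and the activator gene Psme2, also in the RefSeq table, had no match. The difference between the shares was not tested. The matches of both motifs in Psmd9 do not overlap. The CCAAT box, searched on both strands, was found in 15 genes, or 35.7%, against 41.1% of genes. A match describes letters in this window and shows no binding.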

How the data were processed

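Long-read RNA sequencing of heart was deposited as 1 table of counts per transcript model and 1 annotation for each of 2 libraries. The counts are whole reads per model, per the file headers, not normalized by the authors and listed from 1 upward. Coordinates, model lengths and exon numbers are as deposited, on mm10 with GENCODE M21 per the files' notes, and the annotation names TALON as the source of new models. The aligner, filters and versions were not given in the sources used here. Novelty classes are the authors' own. All 278 annotated transcripts of the proteasome genes had the same exons in the deposited annotation and in GENCODE M21.

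Counts were summed per gene over all models (Python 3.11.15, scipy 1.17.1). Models outside reference genes, new genes and spike-ins, held 4.39% and 4.14% of all counts and were left out of totals and tests. CPM uses the totals on reference genes. Log2 ratios add a pseudocount of 1 CPM. Both libraries form 1 group, so no test of conditions exists and edgeR's quasi-likelihood test cannot be fitted. The exact conditional binomial test compares the libraries by counting error only. From edgeR 4.0.16 (R 4.3.3) came the TMM factors and an exact test with a common spread between libraries. That spread (biological coefficient of variation 0.124) was estimated from both libraries as 1 group. Without molecular identifiers reads need not be independent molecules, so intervals and the limit of 3 counts cover counting error only. The binomial and Fisher tests were run on simulated counts drawn without any spread between libraries. How often they err with such a spread was not tested. Near copies were searched with BLAST 2.17.0. Alternatives covered scaling, the models counted, transcript length, count minimums, the pseudocount, transcript comparisons and each library left out. The members, roles, gene lists and pairs were chosen with earlier results of these data known. Named are all members, those past the threshold, all pairs, the 8 genes with the most abundant new model in both libraries, the 6 with the lowest dominant share, and, of the pathway list, genes past the threshold and the 4 highest. Some items that this rule selects are not reported here. Psmd5, the antigen presentation genes, Adrm1, Sem1, Pomp, Nfe2l1, Psme4's models and the copies were named after their values were seen.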

Additional observations from a re-analysis of the deposited data

How the results depend on the processing

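Psmb4 was the gene higher in replicate 1 under median-of-ratios scaling and with the total of all counts. It was so too without the Genomic class and with a summed count of at least 20. Both other pseudocounts enter only the ratio, so they repeat the main test. TMM scaling gave 2 genes higher in replicate 1, Psmb4 and Psma7. The count was 0 with models of a reference transcript identifier only, with the length trend removed, with no minimum count (more genes tested) and with edgeR's exact test. The log2 ratio of Psmb4 was -0.69 with reference identifiers only (adjusted p of the exact binomial test 0.05, above the threshold before rounding) and -0.64 with the length trend removed (0.099). In the direction of replicate 2 it was 0 except for 1 gene, Psmd2 (259 and 345 counts, adjusted p of the exact binomial test 0.022), with reference identifiers only. Of the pathway list 2 genes passed, 3 under TMM scaling (Ubb was added), and 1 passed with reference identifiers only, with the length trend removed and with no minimum count, and 0 with edgeR's exact test. The median log2 ratio of the members (-0.04) was -0.12 under TMM scaling and -0.0763 under median-of-ratios scaling, where the median over all genes was -0.003 and 0.04.

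The summed level (6838 CPM) was 6546 CPM per total of all counts, 7650 CPM with reference identifiers only and 7009 CPM without the Genomic class. In the same order the level was 529.7, 670.0 and 568.2 CPM for constitutive catalytic subunits, 1472, 1596 and 1579 CPM for ATPases, and 1422, 1735 and 1525 CPM for the lid. Of the ATPase level with reference identifiers only, Psmc2 held 0.584 CPM. With reference identifiers only it was 1474 CPM for the alpha ring, 802.8 CPM for beta subunits without an active site, 107.0 CPM for immunoproteasome subunits, 222.2 CPM for chaperones and 51.4 CPM for Psmf1. Incomplete matches counted as annotated brought the annotated share from 90.1% to 96.8%. Of 94 shared models 15 had at least 3 counts in each library and 5 at least 10. The cause of these moves was not tested, beyond the smaller or larger sets of models, genes and totals that each setting uses.

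No transcript shift passed at a minimum of 10 or 50 counts or with every transcript compared, and Psma7 remained the 1 gene with a shifted share of incomplete matches at minimums of 10 (adjusted p of the exact test 0.046) and 50 (0.025), both chosen after seeing the data. With 1 library left out at a time, what remains is the value of the other library, so this is no check of stability. The summed level ranged from 6782 to 6894 CPM and 48 or 49 genes were detected. No paired analysis was possible because there is only 1 group. At this depth genes of a few counts, such as Psmb9, allow wide intervals.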
